A study of Mus musculus with 12 samples.

Results

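The cell cycle genes described here are 40 genes that drive or mark cell division, grouped by role into 10 genes of the G1/S transition, 11 of DNA replication and 19 of mitosis. They were found as the non-control probes of the array whose gene name was 1 of the 40 symbols. These 74 probes were set against 27376 genes tested on the same arrays, and 71 of them were kept, which measured 39 of the 40 members. The remaining member, the cyclin E gene Ccne2, was well above background on 0 vehicle arrays and 1 FAKi array and was not tested. For 18 members more than 1 probe was kept, and the probe with the highest mean stood for the gene.

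RNA came from tumours grown orthotopically in female C57BL/6 mice, which the labels call KP and give an age of 8 weeks. The 6 vehicle tumours came from mice given vehicle for 14 days. The 6 FAKi tumours came from mice that received a focal adhesion kinase inhibitor for 14 days, at 50 mg/kg by gavage. The labels name neither the tumour line, nor whether it was 1 clone, nor the separate animals, so a p-value measures the spread between these 12 tumours. Each sample was a piece of tissue holding tumour cells, stroma and leukocytes, and all 10 epithelial marker genes checked, keratins among them, were measured.

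Cells enter the cycle when D-type cyclins with Cdk4 and Cdk6, then cyclin E with Cdk2, release E2F factors from the retinoblastoma proteins. E2F factors switch on the genes of the replication machinery in late G1 and S phase. Mitotic genes follow in G2, after the DREAM complex has given way to B-Myb and FoxM1, which act through CHR and CCAAT elements of their promoters. In a growing tumour the RNA of replication and mitotic genes follows how many cells are dividing. In pieces of tissue a smaller number of dividing cells and less RNA per cell cannot be told apart.

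The promoters differed in these elements by class. RefSeq windows on GRCm38.p6, from 250 bases before to 50 bases after each start, were matched for 32 of the 40 members, which gave 35 windows. The CHR (TTTGAA or TTCGAA, either strand) was found in 80% of the 15 windows of mitotic members, in 18.2% of the 11 replication windows and in 11.1% of the 9 G1/S windows, against 19.2% of all 32851 windows. CCAAT, on either strand, was in 93.3% of mitotic, 72.7% of replication and 44.4% of G1/S windows, against 37.4% of all. An E2F element (TTTCCCGC, TTTCGCGC, TTTGCCGC or TTTGGCGC, either strand) was in 54.5% of replication, 22.2% of G1/S and 6.67% of mitotic windows, against 2.26% of all. Matches of different elements may overlap, and a match is a description of letters only. The 150 bases before the start are shown, 5′ to 3′ on the gene's strand, for the proliferation marker Mki67, for 3 mitotic genes and for 2 replication genes that the tumour-to-tumour results turn on. Capitals mark CHR, CCAAT and E2F matches on either strand, and in Mcm6 overlapping E2F matches run together.
Mki67, chr7:135716380-135716529, minus strand: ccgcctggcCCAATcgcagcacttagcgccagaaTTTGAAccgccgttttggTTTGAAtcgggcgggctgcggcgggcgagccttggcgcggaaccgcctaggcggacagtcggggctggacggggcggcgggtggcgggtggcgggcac
Ccnb2, chr9:70421555-70421704, minus strand: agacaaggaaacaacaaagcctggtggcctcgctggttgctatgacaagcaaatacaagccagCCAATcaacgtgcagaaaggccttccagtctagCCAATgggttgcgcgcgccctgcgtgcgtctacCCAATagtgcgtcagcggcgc
Ccnb1, chr13:100786487-100786636, minus strand: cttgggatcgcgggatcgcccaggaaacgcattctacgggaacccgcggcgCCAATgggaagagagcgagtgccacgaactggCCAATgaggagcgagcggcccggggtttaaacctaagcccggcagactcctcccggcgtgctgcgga
Cenpe, chr3:135212413-135212562, plus strand: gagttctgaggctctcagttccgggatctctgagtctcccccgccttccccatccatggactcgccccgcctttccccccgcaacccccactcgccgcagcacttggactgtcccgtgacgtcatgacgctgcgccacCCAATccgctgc
Mcm6, chr1:128359706-128359855, minus strand: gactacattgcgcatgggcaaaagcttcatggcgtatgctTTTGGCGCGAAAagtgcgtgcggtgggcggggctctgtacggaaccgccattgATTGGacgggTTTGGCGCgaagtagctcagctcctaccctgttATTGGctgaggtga
Rrm2, chr12:24708104-24708253, plus strand: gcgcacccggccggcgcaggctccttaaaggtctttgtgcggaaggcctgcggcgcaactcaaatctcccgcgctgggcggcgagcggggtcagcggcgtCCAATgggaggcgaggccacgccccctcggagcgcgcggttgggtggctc
Mki67 holds 2 CHR matches and 1 CCAAT match in this stretch. Ccnb2 holds 3 CCAAT matches, and its CHR match lies elsewhere in its window. Ccnb1 and Cenpe hold CCAAT but no CHR in the whole window. Mcm6 holds 3 E2F and 2 CCAAT matches.

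Each of the 12 arrays carried 59305 spots that were not controls, and 66.6% to 76.1% of them were well above background. Expression values below are log2 signal minus the 75th percentile of the array, so 0 is that percentile. That percentile itself was lowest for vehicle 6, at 11.82, and highest for vehicle 1, at 13.88. Vehicle 6 stood apart in brightness. The arrays lay on 5 slides. Slide 1 held vehicle 3 and vehicle 5 with FAKi 5, and slide 4 held vehicle 2 and vehicle 6 with FAKi 1, while the other 3 slides each held 1 group. With the slide as a fixed block, the log2 difference between the groups therefore came only from slides 1 and 4. It rested on FAKi 1 and FAKi 5 against vehicle 2, vehicle 3, vehicle 5 and vehicle 6.

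The first question was whether cell cycle genes differed between FAKi and vehicle tumours. In no gene of the array did they differ at an adjusted p under 0.05 (limma with Benjamini-Hochberg adjustment over 27376 genes, 0% called, smallest adjusted p 0.355), and every measured member had an adjusted p of 0.999. The count over all genes was 3 without FAKi 1. At an unadjusted p under 0.05, limma counted 1312 genes, 3776 without vehicle 6, 872 without FAKi 2, 763 without FAKi 4 and 496 with the slide as a fixed block. The 39 members leaned one way without passing the test. The log2 difference, FAKi minus vehicle, was above 0 for 35 of them, against 60.5% of all genes. Their median was 0.28, against 0.08 for all genes. With the slide as a fixed block, 20 of 39 were above 0, against 46.7% of all genes. Without vehicle 6, 33 of 39 were above 0, against 66.3% of all genes, and 16 members moved by more than 1.5 times or changed sign. Of these, Cdk4 moved to 0.46, Cdk6 to -0.43, E2f2 to 0.09, Cdt1 to 0.25, Mcm2 to 0.23, Mcm6 to 0.25, Mcm7 to 0.52 and Tyms to 0.34. The mitotic ones were Mki67 at 0.14, Ccna2 at 0.16, Cdc25c at 0.42, Plk1 at -0.04, Birc5 at -0.0076, Bub1 at 0.07, Cenpe at 0.16 and Kif11 at -0.03. No member had groups that did not overlap, against 0.238% of all genes.

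**Figure D1:**
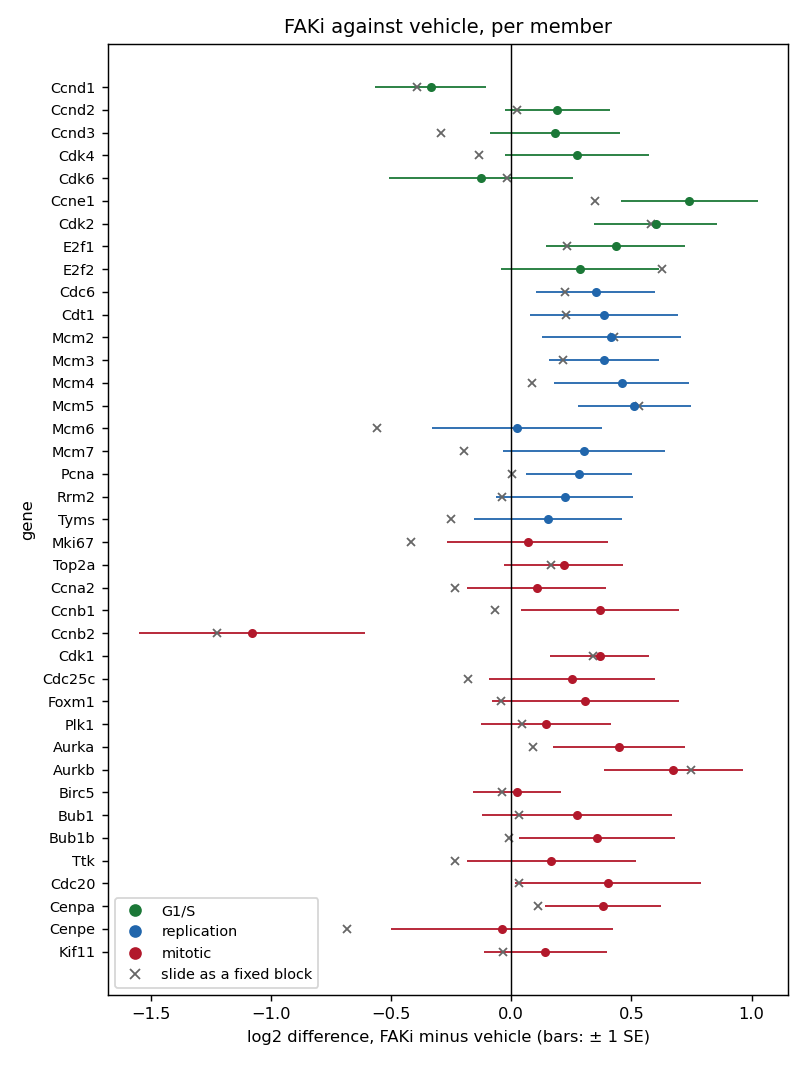
Log2 difference of each measured member, FAKi minus vehicle (x axis), with bars of 1 SE from limma, for 6 vehicle and 6 FAKi tumours; crosses give the same difference with the slide as a fixed block. Of 39 points, 35 lie right of 0, and Ccnb2 lies farthest left at -1.08, while 20 of the crosses lie right of 0.

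At an unadjusted p under 0.05, 4 members were higher in FAKi tumours, against 2.71% of all genes, and 1 was lower, against 2.08%. They were Ccne1, Cdk2, Mcm5 and Aurkb on the one side and Ccnb2 on the other. The count of 4 was 0 without vehicle 2 and 0 without FAKi 2. It was 1 without vehicle 1, vehicle 6, FAKi 4 or FAKi 5, 2 without vehicle 4, and 7 without vehicle 5. The count of 1 was 0 without vehicle 3, vehicle 5, vehicle 6, FAKi 2, FAKi 4, FAKi 5 or FAKi 6. With the slide as a fixed block both counts were 0.

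Among the G1/S members, 7 of the 9 measured lay above 0, with a median log2 difference of 0.27. That median was 0.16 without vehicle 1 and 0.03 with the slide as a fixed block. Within slides 1 and 4 it was 0.32 and 0.26, where the medians of all genes were 0.27 and -0.27. Ccne1 encodes cyclin E1, which drives entry into S phase with Cdk2. Its log2 signal was -0.41 to 0.66 in vehicle tumours (median 0.34) and 0.18 to 1.5 in FAKi tumours (median 0.99). All 6 FAKi tumours lay above the vehicle mean, yet the ranges overlapped. The log2 difference was 0.74 with an SE of 0.285 (limma adjusted p = 0.999). It was 0.47 within slide 1, 0.23 within slide 4 and 0.35 with the slide as a fixed block. Cdk2, the kinase partner of cyclin E, had log2 signals of -0.20 to 1.03 in vehicle tumours (median 0.58) and 0.62 to 1.73 in FAKi tumours (median 1.05). Here too all 6 FAKi tumours exceeded the vehicle mean, the lowest vehicle value was that of vehicle 6, and the groups overlapped. The Cdk2 difference was 0.60 with an SE of 0.258 (limma adjusted p = 0.999), and 0.63 and 0.54 within slides 1 and 4.

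The cyclin D arm of the G1/S machinery had values on both sides of 0. Ccnd1, which encodes cyclin D1, had log2 signals of 3.63 to 4.51 in vehicle tumours and 3.46 to 4.23 in FAKi tumours, with a difference of -0.34 (SE 0.233); 1 FAKi tumour exceeded the vehicle mean. Within slide 1 it was -1.0 and within slide 4 it was 0.21. The kinases that D-type cyclins activate also parted. Cdk6 had a difference of -0.13 (SE 0.383) and Cdk4 a difference of 0.27 (SE 0.301). The other cyclin D genes, Ccnd2 and Ccnd3, had differences of 0.19 and 0.18. The activator E2F genes had differences of 0.43 for E2f1 and 0.29 for E2f2, with SEs of 0.290 and 0.329.

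Every one of the 11 replication members lay above 0, with a median log2 difference of 0.35, in the fit without a slide block. Within slide 1 the class median was 0.26 and within slide 4 it was 0.07, where the medians of all genes were 0.27 and -0.27. With the slide as a fixed block it was 0.09. Mcm2 to Mcm7 encode the 6 subunits of the ring-shaped helicase that opens DNA at origins. Their differences ran from 0.03 for Mcm6 to 0.51 for Mcm5. Mcm5 log2 signals were 0.90 to 1.89 in vehicle tumours (median 1.78) and 1.61 to 2.53 in FAKi tumours (median 2.17). Vehicle 6 was lowest, 5 of 6 FAKi tumours exceeded the vehicle mean, and the groups overlapped. The Mcm5 difference had an SE of 0.236 (limma adjusted p = 0.999), and was 0.37 within slide 1 and 0.69 within slide 4. Mcm4, Mcm2, Mcm3 and Mcm7 had differences of 0.46, 0.42, 0.39 and 0.30. Mcm6 kept no direction, at -0.04 after quantile normalisation and -0.56 with the slide as a fixed block.

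Cdc6 and Cdt1 load this helicase onto DNA, and their differences were 0.35 (SE 0.248) and 0.39 (SE 0.306). Pcna, the sliding clamp of DNA polymerase, had a difference of 0.28 (SE 0.221). Rrm2 and Tyms, which make deoxynucleotides, had differences of 0.22 (SE 0.284) and 0.15 (SE 0.307). With the slide as a fixed block, Rrm2 was at -0.04, Tyms at -0.25 and Pcna at 0.0032.

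Of the 19 mitotic members 17 lay above 0, with a median of 0.25. The class median was -0.19 within slide 1 and -0.01 within slide 4, where the medians of all genes were 0.27 and -0.27. With the slide as a fixed block it was -0.03, as was the median of all genes. The class median was 0.43 without vehicle 5, 0.15 without vehicle 2, 0.15 without vehicle 4, 0.13 without FAKi 2 and 0.14 without FAKi 6. The exception in size was Ccnb2. It encodes cyclin B2, a partner of Cdk1 in mitosis, and was measured by 1 probe at chr9:70255671-70255730 on mm9, the build of the array's design. Its log2 signal was 1.56 to 4.22 in vehicle tumours (median 2.53) and 1.1 to 2.58 in FAKi tumours (median 1.36). None of the 6 FAKi tumours exceeded the vehicle mean, the 2 highest values were vehicle 5 and vehicle 6, and the groups overlapped. The difference was -1.08 with an SE of 0.471 (limma adjusted p = 0.999). It was -2.0 within slide 1, -0.45 within slide 4 and -1.22 with the slide as a fixed block.

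Aurkb, the kinase of the chromosomal passenger complex, went the other way. Its log2 signal was -0.65 to 0.30 in vehicle tumours (median -0.48) and -0.74 to 1.02 in FAKi tumours (median 0.36). Of the FAKi tumours 5 lay above the vehicle mean, and FAKi 6 was the lowest of all 12. The Aurkb difference was 0.67 with an SE of 0.288 (limma adjusted p = 0.999), with 0.67 within slide 1 and 0.83 within slide 4. A further Aurkb probe gave 0.52. Birc5, its partner in the same complex, had a difference of 0.02 (SE 0.184), which turned to -0.03 after quantile normalisation.

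Mki67 and the regulators of mitotic entry had differences from 0.07 to 0.45. Mki67 was at 0.07 (SE 0.336), and at -0.42 with the slide as a fixed block. Cdk1, the mitotic kinase, had log2 signals of 1.22 to 1.76 in vehicle tumours and 1.48 to 2.17 in FAKi tumours. All 6 FAKi tumours exceeded the vehicle mean, the difference was 0.37 (SE 0.205), and it was 0.45 and 0.23 within slides 1 and 4. Ccnb1, cyclin B1, also had a difference of 0.37 (SE 0.328), and Ccna2, cyclin A2, one of 0.11 (SE 0.289). The phosphatase Cdc25c, which activates Cdk1, was at 0.25, the polo-like kinase Plk1 at 0.14, and the centrosomal kinase Aurka at 0.45. Foxm1, the transcription factor of mitotic genes, was at 0.31 (SE 0.390).

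The spindle and checkpoint members spread around the same size. The checkpoint kinases Bub1, Bub1b and Ttk had differences of 0.27, 0.36 and 0.17, and Cdc20, the anaphase activator they restrain, had 0.40. Cenpa, the centromeric histone, was at 0.38 and Cenpe, a kinetochore motor, at -0.04. The spindle motor Kif11 was at 0.14 and the topoisomerase Top2a at 0.22. None of these differences reached an unadjusted p under 0.05 in limma.

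**Figure D2:**
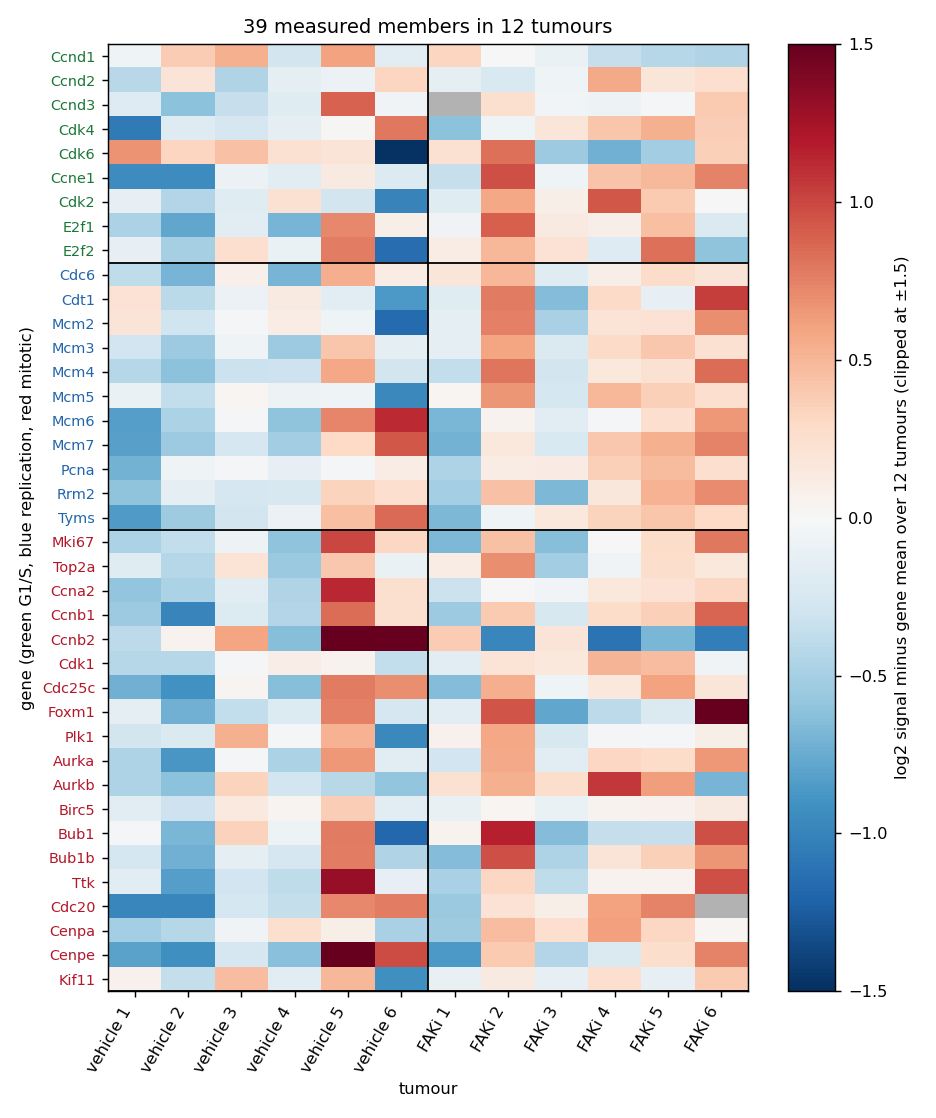
Log2 signal of the 39 measured members (y axis) minus each gene's mean over the 12 tumours, by tumour (x axis); colours are clipped at 1.5 and grey marks a missing value. Most replication and mitotic members are high in vehicle 5, FAKi 2 and FAKi 6. They are low in vehicle 1, vehicle 2, vehicle 4, FAKi 1 and FAKi 3. Ccnb2 is highest in vehicle 5 and vehicle 6.

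The spread of tumours within a group was wide beside the difference between the groups. For each class the level of a tumour was the mean over its members of the log2 signal minus the gene's mean. The mitotic level ran from -0.59 in vehicle 2 to 0.74 in vehicle 5, so both extremes were vehicle tumours. Group means were -0.09 ± 0.47 for vehicle and 0.10 ± 0.29 for FAKi (SD over the 6 tumours of a group). The replication level ran from -0.43 in vehicle 2 to 0.54 in FAKi 6, with group means of -0.16 ± 0.27 and 0.16 ± 0.37. The G1/S level had a narrower range, from -0.32 in vehicle 6 to 0.41 in FAKi 2, with group means of -0.12 ± 0.25 and 0.12 ± 0.18. In all 3 classes the groups overlapped.

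**Figure D3:**
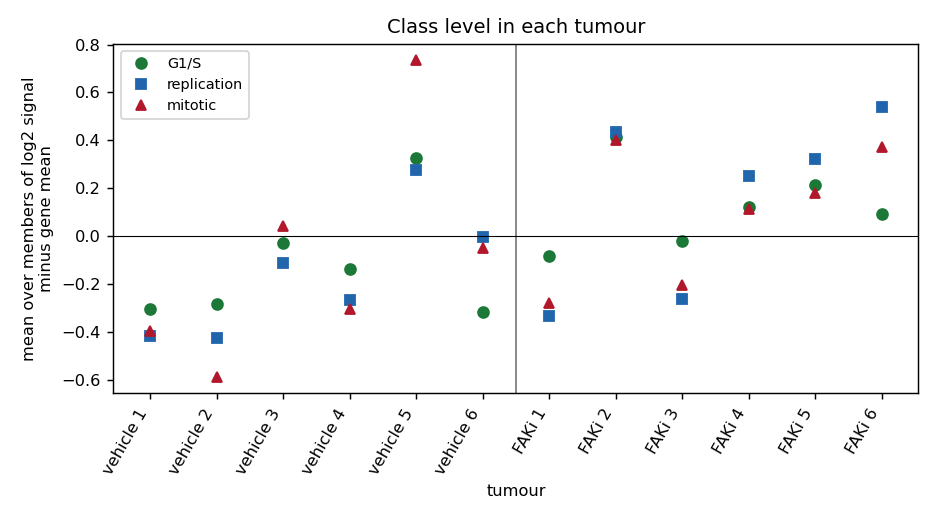
Class level (y axis, mean over members of log2 signal minus the gene mean) in each of the 12 tumours (x axis), for G1/S, replication and mitotic members. Vehicle 5 has the highest mitotic level at 0.74 and FAKi 6 the highest replication level at 0.54, and vehicle 2 is lowest in both.

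The second question was which members vary together from tumour to tumour. Mki67 served as the anchor. Its log2 signal was 1.01 to 2.61 in vehicle tumours (median 1.39) and 0.93 to 2.40 in FAKi tumours (median 1.75). It was high in vehicle 5, FAKi 6 and FAKi 2 and low in FAKi 1, FAKi 3 and vehicle 4, so high and low tumours came from both groups. Over the 12 tumours, 36 members had all values. Pearson's r with Mki67 was positive at an adjusted p under 0.05 for 9 of the 36 (100000 permutations, adjusted over 27262 genes), against 3.09% of all genes. It was negative at that threshold for 0 members, against 0.414% of all genes. By size alone, 22 members had r of at least 0.5, against 18.3% of all genes, and 10 had r of at least 0.8, against 3.08%. The median r was 0.63 for members and 0.17 for all genes.

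The 9 members that passed were mitotic and replication genes. Cenpe had r = 0.92, Ccnb1 0.90, Ttk 0.89, Ccna2 0.85, Aurka 0.83 and Bub1b 0.82 among the mitotic members. Rrm2 had 0.88, Mcm6 0.84 and Mcm4 0.83 among the replication members. Their adjusted permutation p ran from 0.0126 for Cenpe to 0.0427 for Bub1b. Spearman's rho was 0.88 for Cenpe and 0.87 for Ccnb1, and by rho no member passed, the smallest adjusted permutation p being 0.0532 for Ttk. Without vehicle 5 and FAKi 6, the pair farthest from the Mki67 median, r was 0.87 for Cenpe, 0.81 for Ccnb1 and 0.91 for Rrm2, and 0 members passed over 10 tumours.

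The count of 9 rested on single tumours. It was 0 without FAKi 6, 2 without vehicle 4, 2 without vehicle 5, and 5 without vehicle 1, vehicle 3, FAKi 4 or FAKi 5. It was 14 when deviations from the group means were correlated in place of the values. The size of r moved little when 1 tumour was left out. Median r with Mki67 then ran from 0.65 to 0.76 for replication and from 0.66 to 0.79 for mitotic members. For G1/S members it ran from 0.15 to 0.27. The array's 75th percentile moved with Mki67 at r = -0.48 (permutation p = 0.106). Spearman's rho was -0.62 (permutation p = 0.0347, adjusted 0.0693 over 2 array measures). Without vehicle 6 and vehicle 1, the arrays whose 75th percentile lay farthest from its median, r was -0.62. The part of array brightness in the result was not tested. After quantile normalisation the median r of members was 0.58. Slides held too few tumours for a correlation within each.

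The classes differed in this measure. Median r with Mki67 was 0.73 for the 11 replication members, 0.71 for 17 mitotic members and 0.20 for 8 G1/S members. Between members, median r was 0.56 over pairs of replication genes, 0.54 over pairs of mitotic genes and 0.51 for replication with mitotic genes. It was 0.15 over pairs of G1/S genes, 0.38 for G1/S with replication genes and 0.28 for G1/S with mitotic genes. Over all pairs of genes on the array it was 0.066. With Top2a as the anchor the replication median was 0.48. The G1/S median was 0.08 after quantile normalisation, 0.04 in the fit to the second log2 table, -0.02 with the mean of a gene's probes and 0.42 after median centring. Ccnd3 and Cdc20 had values in 11 tumours and are not in these medians; their r was 0.80 and 0.73, and the G1/S median with Ccnd3 was 0.28. Among the other G1/S members, Ccne1 had r = 0.64, E2f1 0.61 and Cdk4 0.52 with Mki67. Cdk2 was at -0.02, Ccnd1 at -0.03 and Cdk6 at -0.04. These correlations share 12 libraries and the spread of the array brightness.

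Some mitotic genes had a low r with Mki67. Aurkb had r = -0.13, Ccnb2 0.19, Cdk1 0.22, Cenpa 0.28, Plk1 0.31 and Kif11 0.35. Without vehicle 6, Plk1 had 0.62 and Kif11 0.70, while Aurkb had -0.08, Ccnb2 0.12, Cdk1 0.30 and Cenpa 0.38. Aurkb was lowest in FAKi 6, where Mki67 was high, and its r without vehicle 5 and FAKi 6 was 0.32. Cdk1 spanned 0.95 log2 units over all 12 tumours, and Birc5 spanned 0.68. Of the replication members, Mcm5 had r = 0.23, Mcm2 0.28 and Cdt1 0.36. All 3 were lowest in vehicle 6, and without it they had 0.50, 0.57 and 0.52.

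Ccnb2 followed Mki67 in vehicle tumours, while in FAKi tumours it was highest in FAKi 1 and FAKi 3, where Mki67 was lowest. Within the 6 vehicle tumours r was 0.96, and within the 6 FAKi tumours it was -0.88. In vehicle tumours Ccnb2 was 1.56 where Mki67 was lowest, at 1.01 in vehicle 4, and 4.22 where Mki67 was highest, at 2.61 in vehicle 5. In FAKi tumours Ccnb2 was 2.58 where Mki67 was lowest, at 0.93 in FAKi 1, and 1.17 where Mki67 was highest, at 2.40 in FAKi 6. The slope of Ccnb2 on Mki67 was 1.73 in vehicle and -0.98 in FAKi tumours. The slopes differed by -2.71 with an SE of 0.397 (limma interaction term over 27262 genes, adjusted p = 0.0383). This test was added after the values had been seen.

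The difference in Ccnb2 slope was negative in each of the 19 alternatives run, from -3.44 to -2.54. No alternative left out FAKi 1 and FAKi 3 together. The adjusted p of the slope difference in limma ran from 0.0213 to 0.206. It was above the threshold in 12 of them: with the slide as a fixed block (adjusted p = 0.130), after median centring (0.0507), and without any 1 tumour other than vehicle 6 or FAKi 4. The same term passed for 57 genes, or 0.209% of all tested, and for 1 of 36 members. At an unadjusted p under 0.05 it held for 4 of 36 members, against 11.9% of all genes. An r of at least 0.8 in vehicle and at most -0.8 in FAKi tumours was found for 0.616% of all genes.

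**Figure D4:**
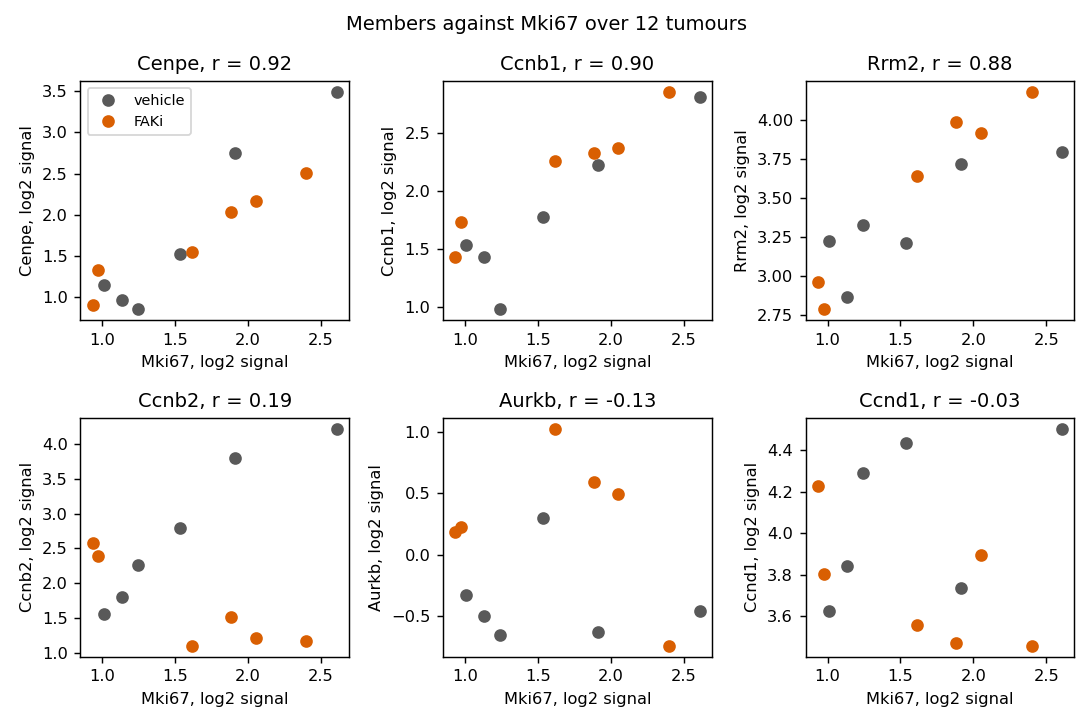
Log2 signal of 6 members (y axes) against that of Mki67 (x axes) over 6 vehicle and 6 FAKi tumours, each point 1 tumour and r over all 12. Cenpe, Ccnb1 and Rrm2 lie along 1 rising band in both groups, while Ccnb2 rises with Mki67 in vehicle tumours (r = 0.96). Among FAKi tumours Ccnb2 is high in FAKi 1 and FAKi 3, where Mki67 is lowest, and lower in the rest (r = -0.88).

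The other mitotic cyclins had a positive r in both groups. Ccnb1 had r with Mki67 of 0.92 in vehicle and 0.97 in FAKi tumours, and its slopes differed by -0.15 (SE 0.330). Ccna2 had 0.98 and 0.80, with a slope difference of -0.76 (SE 0.289, limma adjusted p = 0.308). Cenpe had 0.96 and 0.97, with a slope difference of -0.76 (SE 0.35). Over 36 members the median r was 0.68 in vehicle and 0.71 in FAKi tumours, and over all genes it was 0.15 and 0.27. The loading factor Cdt1 and the helicase subunit Mcm2 had r of -0.42 and -0.34 in vehicle but 0.87 and 0.93 in FAKi tumours. Their slope differences, 1.20 and 1.03, had limma adjusted p of 0.268 and 0.383.

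Probes of 1 gene did not always vary together. For 18 members, 32 further probes were kept, and their r with the gene's main probe ran from -0.37 to 0.95 with a median of 0.62. Their median r with Mki67 was 0.27, against 0.73 for the main probes of those genes. When the mean of a gene's probes replaced the main probe, 1 member passed in the correlation with Mki67. Top2a probes followed the main Top2a probe at r of 0.95, 0.81 and 0.39. A further Mcm7 probe ran against the main one, at r = -0.37. The further probes belong to members already counted. Of these probes, 29 of 32 had a FAKi minus vehicle difference above 0, against 60.5% of all genes. The highest belonged to Foxm1, with 1.20 (SE 0.397, limma adjusted p = 0.966 over all probes), against 0.18 and 0.31 for the other Foxm1 probes. The 4 Ccnb1 probes gave 0.37, 0.52, 0.52 and -1.21. The probe at -1.21 (SE 0.906) was well above background on only 4 vehicle and 2 FAKi arrays, the other Ccnb1 probes on every array.

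Other genes of the cell cycle were read from 4 further lists, and no gene in them passed the adjusted test in limma. Of all genes, 60.5% had a difference above 0, and the median was 0.08. Of 10 inhibitors and retinoblastoma family genes, 2 lay above 0, with a median of -0.15. Cdkn2c, an inhibitor of Cdk4 and Cdk6, had a difference of -0.57 (SE 0.302), and no FAKi tumour exceeded the mean of the vehicle tumours. It was at -1.0 within slide 1 and at 0.23 within slide 4. Rb1, the retinoblastoma gene, had -0.39 (SE 0.242). Of 13 further E2F and MuvB genes 8 lay above 0, with a median of 0.20. Tfdp1, the dimer partner of E2F factors, had a difference of 0.60 (SE 0.246), and Mybl2, which encodes B-Myb, one of 0.77 (SE 0.375). Mybl2 was at 0.99 within slide 1 and -0.24 within slide 4.

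Further replication genes lay above 0 in 26 of 29 cases, with a median of 0.24, against 60.5% and 0.08 for all genes. Chaf1a, a chromatin assembly factor, had 0.57 (SE 0.264) and Orc5, of the origin recognition complex, had 0.43 (SE 0.199). Chaf1a was at 0.68 within slide 1 and -0.0087 within slide 4. Further mitotic genes did so in 31 of 38 cases, with a median of 0.16. Ube2c, the ubiquitin-conjugating enzyme of the anaphase-promoting complex, had 0.61 (SE 0.260) and Kif2c, a microtubule depolymerase, had 0.62 (SE 0.295). In the correlation with Mki67, 11 of 29 further replication genes and 16 of 38 further mitotic genes passed, all with positive r, against 3.09% of all genes, and their median r was 0.73 and 0.74. Of the inhibitor and retinoblastoma family list 1 of 9 passed, Rbl1, with r = 0.95, named after its value was seen, and of the E2F and MuvB list 0 of 13.

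Outside the members, the 5 named genes with the highest r with Mki67 were Incenp, Pole, Arid1a, Ift140 and Fasn. Incenp, of the chromosomal passenger complex, and Pole, the catalytic subunit of DNA polymerase epsilon, both had r = 0.97. Arid1a, a subunit of a chromatin remodelling complex, had r = 0.97, Ift140, a gene of ciliary transport, 0.96, and Fasn, the fatty acid synthase, 0.96. Each had an adjusted permutation p of 0.0126. The closest followers of Mki67 thus held genes of the cell cycle and genes known for other roles.

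Markers of other cells in the tissue were set beside these results. All 9 measured acinar genes lay above 0 in FAKi minus vehicle, with a median of 0.42, and the log2 of their summed signal was 1.09 to 2.89 in vehicle and 2.01 to 3.29 in FAKi tumours. None of the 7 endothelial genes lay above 0, with a median of -0.34 and levels of 2.20 to 4.20 and 2.19 to 3.21. None of the 6 adipocyte genes did either, with a median of -0.73 and levels of 1.85 to 5.28 and 2.10 to 3.88. The median was -0.48 over 6 B and plasma cell genes, 2 of them above 0, and 0.28 over 8 neutrophil genes, 7 of them above 0. Over 6 skeletal muscle genes it was 0.30, with 4 above 0. For the duct and epithelium, islet, fibroblast, T cell and macrophage lists it lay between -0.10 and 0.07. Skeletal muscle genes reached a level of 7.23 in FAKi 3, against at most 4.41 in the other tumours. Amy2a5, Sst, Iapp and Trac were not measured. Median r with Mki67 was -0.45 over the 10 duct and epithelium genes, -0.36 over 6 skeletal muscle genes and 0.37 over 10 fibroblast genes, and for the other 8 lists it lay between -0.15 and 0.28. No marker gene passed the adjusted limma test, and 1, of the duct and epithelium list, had an r with Mki67 that passed, with a negative sign. Their part in the results on cell cycle genes was not tested.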

How the data were processed

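Total RNA of 12 tumours, 6 vehicle and 6 FAKi, was hybridised to one-colour Agilent arrays in Cy5, per the labels' protocols. The intensity values deposited by the authors were the red processed signal of Agilent Feature Extraction 11.5.1.1, already background-subtracted, and 11 of 12 file headers name mm9 (1 names no build), per the file headers. A second deposited table holds the authors' log2 values for 38569 probes. The submitters' processing notes name limma, with no version. How that table was normalised is not given in the sources. Its columns each matched their own array best (r of at least 0.997 over probes), and its column medians were 10.71 to 10.90, so it was read as uncentred log2 signal in the same direction.

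Here log2 signal minus the array's 75th percentile was the value of a spot, and a probe's spots were averaged, leaving out 71 to 156 outlier spots an array; 0 spots were saturated. Probes well above background on at least 6 arrays were kept, 40460 of 56605, and a gene was its brightest kept probe. Groups came from the labels and were compared by limma 3.58.1 in R 4.3.3 (lmFit and eBayes) with Benjamini-Hochberg adjustment over all genes. Correlations with Mki67 used Python 3.11.15 and two-sided permutations, 100000 in the main run. Fewer were drawn for the other processing settings and for leaving out each tumour in turn. The fits and correlations were tested on simulated data. Alternatives covered quantile normalisation, median centring, normexp (offset 50), the authors' table, 2 other filters, the mean of a gene's probes, slide and replicate blocks, other anchors and leaving out each tumour. All 40 members are named, with 2 genes of smallest p from each of 4 further lists and the 5 genes of highest r with Mki67, leaving out predicted genes and unnamed transcripts. Ccnb2 slopes, and single further probes, were singled out after their values were seen. Members and lists were chosen with earlier results of these data known. The number of arrays limits the precision.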

Additional observations from a re-analysis of the deposited data

Results flagged for a closer look

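Among 84 sets of 6 values (a member or class level in 1 group, 5 where a value was missing), 7 held a tumour far from the others by Dixon's criterion at the 95% level. Chance gives such a tumour in about 1 of 20 sets. All 7 were vehicle tumours. Vehicle 5 was high for Ccnd3, with a log2 signal of 3.67 against 2.17 to 2.73 in the others. It was also high for Mcm4, with 2.95 against 1.76 to 2.10, and for Ttk, with 0.0545 against -2.08 to -1.38. Vehicle 6 was low for Cdk6, with -0.96 against 0.71 to 1.19, and for Mcm2, with -0.61 against 0.24 to 0.73. Vehicle 1 was low for Pcna, with 3.98 against 4.56 to 4.80. Vehicle 3 was high for Aurkb, with 0.30 against -0.65 to -0.33. Without vehicle 5 the log2 difference of Cenpe, FAKi minus vehicle, was 0.30 in place of -0.04.

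The slope of Ccnb2 on Mki67 differed between FAKi and vehicle tumours by -2.71 log2 units per log2 unit (limma interaction term, adjusted p = 0.0383 over 27262 genes). Ccnb2 was chosen after its values were seen, and the adjusted p ran from 0.0213 to 0.206 over the alternatives.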

How the results depend on the processing

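Genes at an adjusted p under 0.05 numbered 1 with normexp and 0 to 3 when a tumour was left out, and members 0 throughout. Members higher in FAKi tumours at an unadjusted p under 0.05 numbered 1 after median centring, 0 with the slide as a fixed block and 0 to 7 when a tumour was left out. Members lower numbered 0 with the slide as a fixed block and 0 to 1 when a tumour was left out. Over all genes, both directions together, the count was 1312 in the main fit and 1098 after median centring. It was 496 with the slide as a fixed block and 763 to 3776 when a tumour was left out. With the slide as a fixed block, the class medians were 0.0253 for G1/S, 0.09 for replication and -0.03 for mitotic members. When a tumour was left out they ran from 0.16 to 0.38, 0.26 to 0.45 and 0.13 to 0.43. Members that passed in the correlation with Mki67 numbered 0 without the 2 tumours farthest from its median, 14 on deviations from the group means, 0 with Top2a as the anchor, 1 with the mean of a gene's probes, and 0 to 9 when a tumour was left out.

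The sign of the log2 difference held in every setting for 21 of 39 members. The fit with the slide as a fixed block took this difference only from slides 1 and 4, which held FAKi 5 and FAKi 1. With the slide as a fixed block, 15 turned: Ccnd3 to -0.29, Cdk4 -0.13, Mcm6 -0.56, Mcm7 -0.20, Rrm2 -0.0377, Tyms -0.25, Mki67 -0.42, Ccna2 -0.23, Ccnb1 -0.068, Cdc25c -0.18, Foxm1 -0.0429, Birc5 -0.0372, Bub1b -0.0091, Ttk -0.23 and Kif11 -0.0345. Ccnd3 was -0.0605 with the mean of a gene's probes. Mcm6 was -0.0355 with quantile normalisation, -0.0104 with median centring and -0.0072 in the fit to the second log2 table. Birc5 was -0.0277, -0.0126 and -0.037 in the same order. The cause was not tested. Leaving out 1 tumour gave ranges across 0 for Cdk6 (-0.43 to 0.0057), Mcm6 (-0.14 to 0.25), Tyms (-0.0022 to 0.34), Mki67 (-0.0824 to 0.28), Ccna2 (-0.001 to 0.34), Plk1 (-0.0353 to 0.26), Birc5 (-0.0359 to 0.10), Ttk (-0.0093 to 0.44), Cenpe (-0.22 to 0.30) and Kif11 (-0.0269 to 0.26).

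Same-numbered tumours of the groups correlated at -0.12 to 0.48 in their deviations, and 2 of 6 matched their own number best. Whether the numbers pair tumours cannot be told from these values. With the replicate block, 1669 genes had an unadjusted p under 0.05 against 1312 without it, 35 of 39 members lay above 0, and 0 members turned. The random slide block had a correlation of 0.03.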
